A study of Homo sapiens with 4 samples.

Results

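The genes described are those of the mitochondrial ribosome, taken as every entry of the count table whose symbol starts with MRPL or MRPS followed by a number and at most 1 letter from A to C. There were 75 of them among 18917 genes, 46 with MRPL symbols (named for the large subunit) and 29 with MRPS symbols (named for the small subunit). The samples were 4 RNA-seq libraries of total RNA from HEK293 cells, an immortalized line derived from human embryonic kidney that the study's text calls HEK-293T. In the study THUMPD1 was deleted with CRISPR-Cas9 and candidate clones were sorted as single cells, so genotype and clone cannot be told apart. WT and THUMPD1 KO cells had 2 libraries each. By the study's methods, all were grown in DMEM with 10% FBS, 2 mM Gln and penicillin-streptomycin, with no further agent named. THUMPD1 is the adapter through which the acetyltransferase NAT10 places N4-acetylcytidine on leucine and serine tRNAs, and the comparison of KO with WT cells asks which transcripts differed in its absence.

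Mitochondria carry their own ribosomes, which translate the few membrane proteins of the respiratory chain that the mitochondrial genome encodes. The ribosomal RNAs of these particles are made inside the organelle, whereas all of their proteins are encoded in the nucleus, made by cytosolic ribosomes and imported. Many of the proteins have counterparts in bacterial ribosomes, and others are found only in mitochondria. Cultured human cells such as HEK293 are widely used to study the assembly of this machine, whose loss impairs oxidative phosphorylation.

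Library totals ran from 7875722 to 11362363 counts, and 3 counts corresponded to 0.259 to 0.391 CPM (counts scaled to a fixed total on TMM-scaled library sizes, the level used throughout). THUMPD1, itself on chromosome 16, was counted 356 and 468 times in WT against 71 and 58 times in KO libraries, a log2 fold change of -2.93 (SE 0.17), lower in both KO libraries. The kidney-lineage transcription factor PAX2 had 51 to 92 counts in every library, while UMOD, a marker of differentiated kidney tubule, had 0 counts throughout, with a limit of 3 counts per library. Between the genotypes the median log2 fold change was -0.44 over the 573 tested genes of chromosome 16, -0.42 over the 311 of chromosome 22 and 0.03 over the 12127 on other chromosomes. Since 3 of the mitochondrial ribosomal protein genes lie on those 2 chromosomes, they are given beside their chromosome's median. In bulk RNA, fewer cells of a kind and less RNA per cell cannot be told apart.

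All 75 genes were expressed well above the floor of 3 counts. Their counts in single libraries ran from 108 to 2544, their mean WT levels from 15.1 to 218 CPM (median 52.1), and all 75 were among the 13128 genes tested with edgeR. The summed level of the 46 MRPL genes came to 2867 and 2842 CPM for WT, and to 2825 and 2824 CPM for KO libraries. The sum of the 29 MRPS genes came to 2000 and 2050 CPM for WT, and to 2017 and 2036 CPM for KO libraries. The MRPS sums of the KO libraries lay between the WT sums, and the MRPL sums lay just below them, by less than the 2 WT libraries differed from each other. These sums include the 3 genes on chromosomes 16 and 22. Of those, MRPS34 went from a mean of 218 CPM in WT to 146 CPM in KO cells. MRPL28 went from 134 to 92.0 CPM. Each fell by more than the mean of its subunit's sum changed (1.83 CPM for MRPS and -30.2 CPM for MRPL), so the order of the genotypes in the sums rests on these genes. As means, the MRPL sum of WT cells was 2854 ± 17.8 CPM and that of KO cells 2824 ± 0.625 CPM, and the MRPS sum 2025 ± 35.2 and 2027 ± 13.0 CPM (SD, n = 2 per genotype). The ratio of the MRPL to the MRPS sum was 1.43 and 1.39 in WT and 1.40 and 1.39 in KO libraries. Scaled by library size alone, the 75 genes took 0.474% and 0.473% of all counts in WT and 0.502% and 0.495% in KO libraries. The order of the genotypes in the summed level thus also depended on the scaling.

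**Figure D1:**
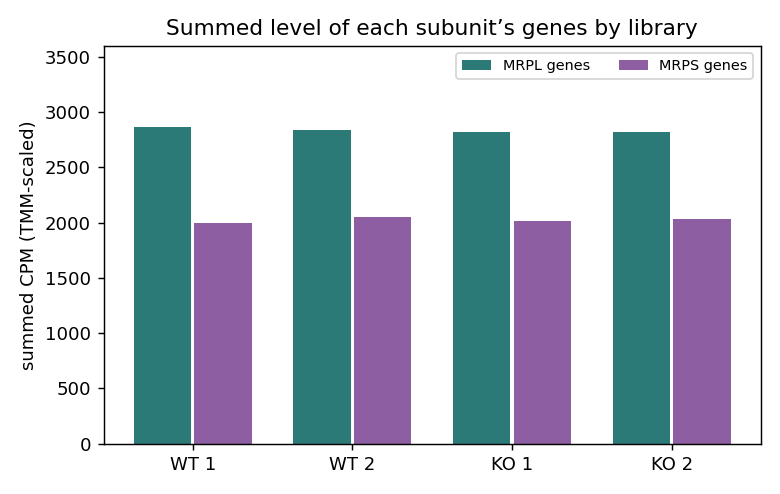
Summed level (CPM, TMM-scaled, linear axis from 0) of the 46 MRPL and the 29 MRPS genes, 1 bar per library. The MRPL bars lie between 2824 and 2867 CPM and the MRPS bars between 2000 and 2050 CPM in all 4 libraries. The sums include the 3 genes on chromosomes 16 and 22.

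Gene by gene, 1 mitochondrial ribosomal protein transcript rose in KO cells (MRPS21) and 4 fell (MRPS34, MRPL28, MRPL51 and MRPS26), by edgeR's quasi-likelihood test at an adjusted p under 0.05. The 5 called genes are 6.67% of the 75, beside 20.9% of all genes tested. In the single directions, 8.79% of all tested genes were called higher and 12.1% lower. The call counts of these genes moved with the scaling. With TMM they were 1 higher and 4 lower, with library size alone 9 higher and 3 lower, and with upper quartile scaling 4 and 4. With TMM factors set without chromosomes 16 and 22 they were 1 and 6, and with limma-voom after quantile normalization 4 and 3. Over all genes tested, the share called in these settings was 20.9%, 24.7%, 21.6%, 21.3% and 20.0%, in the same order. Library size alone moved the median log2 fold change of all genes from 0.01 to 0.09, so changes under that scaling are to be read against the higher median. MRPS21, MRPS34, MRPL28 and MRPL51 were called under each of the 8 alternatives tried other than leaving out a library, and MRPS26 under 5 of them. Of the 75 genes, 8 were called without WT replicate 1, 8 without WT replicate 2, 3 without KO replicate 1 and 6 without KO replicate 2.

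The other 70 genes were not called, and for most the interval of the difference was narrow. The log2 fold change of the 75 genes had a median of 0.06 (interquartile range -0.13 to 0.12) beside 0.01 for all genes tested, and its SD across genes was 0.187 beside 0.479. It lay between -0.25 and 0.25 in 65 of the 75 (86.7%, beside 57.4% of all genes tested), and the 95% interval lay within 0.5 of 0 in 65 (86.7%, beside 49.3%). These genes were measured with a median SE of 0.103, beside 0.131 for all genes, and the widest interval reached 0.385 to either side. An unadjusted p under 0.05 was reached by 17 genes, 6 higher and 11 lower, beside 33.3% of all genes tested. Both KO libraries lay above both WT libraries in 22 genes and below them in 20, and the genotypes overlapped in the other 33. Over all genes tested, 30.4% (3990 genes) lay above and 30% (3935) below.

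**Figure D2:**
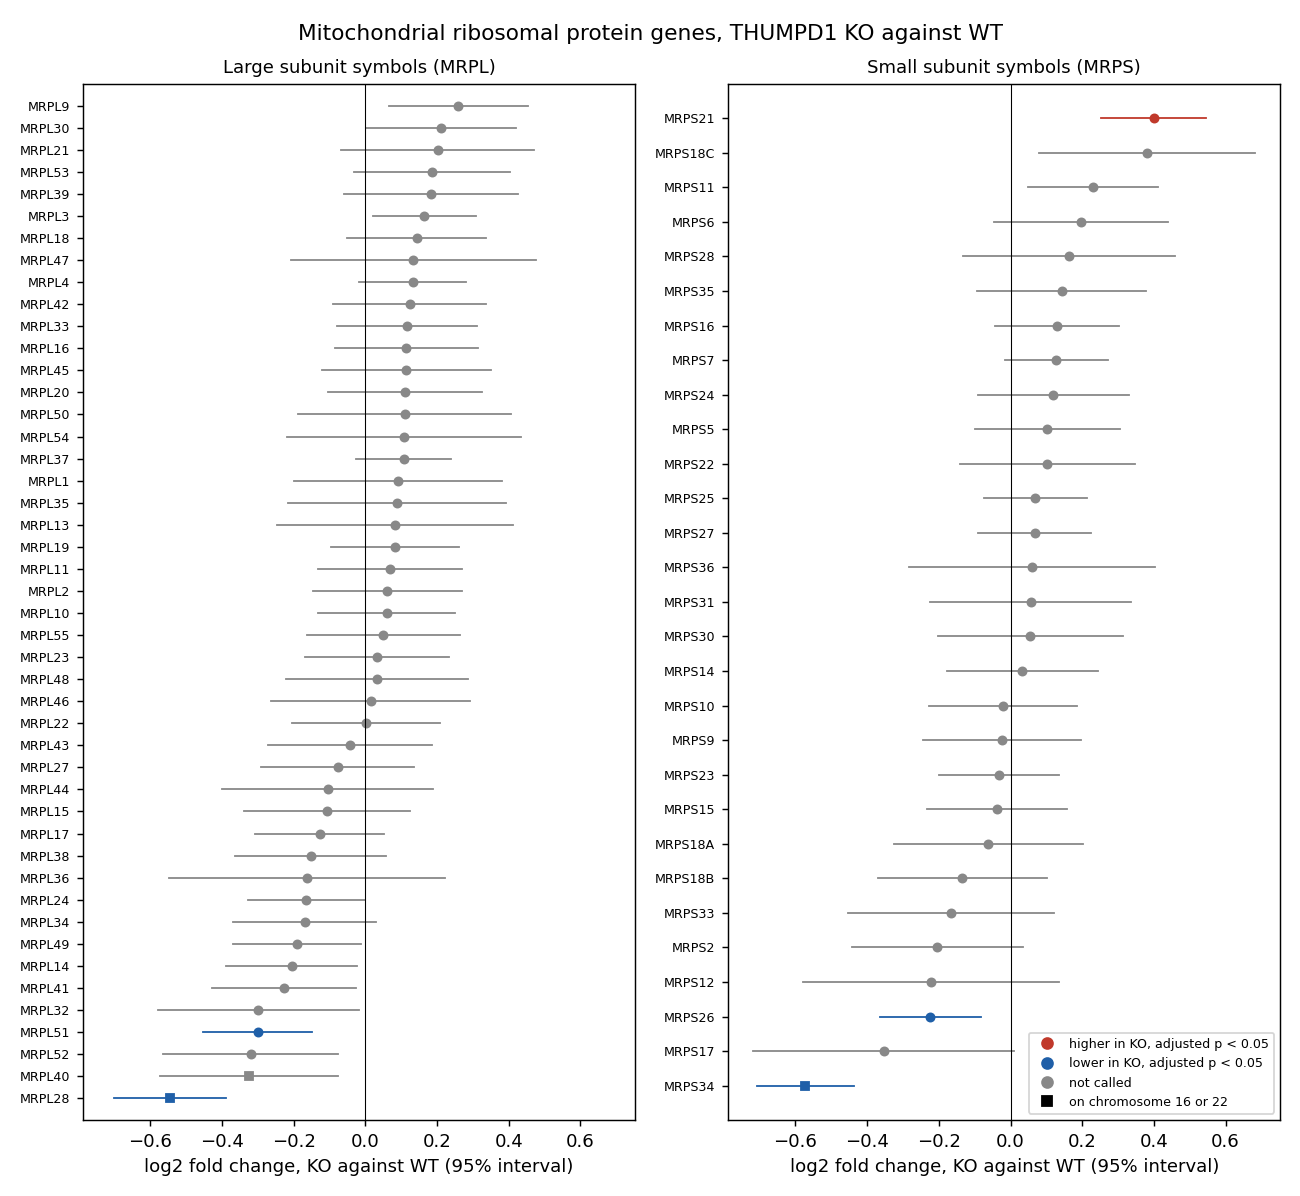
Log2 fold change (KO against WT, x axis) with its 95% interval for each of the 46 MRPL genes (left) and the 29 MRPS genes (right), ordered by value. Red marks the gene called higher, blue those called lower, grey those not called, and squares the 3 genes on chromosomes 16 and 22. Most points lie within 0.25 of 0, and the 2 lowest, MRPS34 and MRPL28, are on chromosome 16.

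The stretches before the transcription start sites were read for motifs known from promoters of mitochondrial protein genes. Of the 75 genes, 66 had a promoter window from RefSeq (GRCh38.p14, 250 bases before to 50 after the start), 82 windows in all, since 11 genes had more than 1 and those may overlap. The ETS core CCGGAAG, the letters bound by GABPA, was found on either strand in 39.0% of these windows, beside 15.8% of the windows of all tested genes and 10.3% of all promoter windows. The YY1 motif with its ATG-containing core stood in 12.2%, beside 1.62% and 0.849%. The NRF1 palindrome stood in 1.22%, beside 1.81% and 1.24%, and the SP1 box GGGCGG in 61.0%, beside 65.3% and 45.0%. Of the 66 genes with a window, 29 had an ETS match, among them all 5 called genes, the 1 that rose and the 4 that fell. A link between the match and the call was not tested. A match here is a run of letters and not a measured binding site.

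The 150 bases before the start site are shown for MRPS21 (GRCh38.p14, chr1:150293711-150293860, plus strand), the gene that rose, and for MRPS26 (chr20:3045902-3046051, plus strand) and MRPL28 (chr16:370539-370688, minus strand), which fell. Each is printed from 5′ to 3′ and ends at the base before the start, with matches to the ETS core (CCGGAAG, or CTTCCGG on the other strand) and to the SP1 box in capitals. The stretches of MRPS34 and MRPL51 hold exons of neighbouring transcripts and are not shown. The stretch of MRPL28 lies inside that gene's GENCODE span (366969 to 371289), so it precedes only the RefSeq start used here.
MRPS21: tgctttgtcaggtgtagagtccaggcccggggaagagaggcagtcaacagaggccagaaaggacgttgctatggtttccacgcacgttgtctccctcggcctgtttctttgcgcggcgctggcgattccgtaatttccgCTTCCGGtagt
MRPS26: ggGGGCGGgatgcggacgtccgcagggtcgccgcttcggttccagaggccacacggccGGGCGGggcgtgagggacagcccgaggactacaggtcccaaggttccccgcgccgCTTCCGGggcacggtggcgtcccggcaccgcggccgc
MRPL28: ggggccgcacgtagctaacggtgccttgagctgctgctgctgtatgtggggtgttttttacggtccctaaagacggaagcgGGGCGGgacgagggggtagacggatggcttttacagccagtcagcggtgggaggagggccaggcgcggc
The gene that rose and MRPS26, which fell, both carry the ETS letters on the opposite strand within this stretch, and in MRPL28 the ETS letters fall just after the start, outside the bases shown. MRPS26 and MRPL28 also hold SP1 boxes, and MRPS21 none in this stretch.

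MRPS21, the counterpart of bacterial ribosomal protein bS21 in the small subunit, was the gene called higher. It had 137 and 144 CPM in WT and 177 and 195 CPM in KO libraries (141 ± 4.94 and 186 ± 12.6, SD, n = 2), and both KO libraries lay above both WT libraries. The log2 fold change was 0.40 (SE 0.071, 95% interval 0.25 to 0.55, edgeR adjusted p = 2.00e-04), and it ran from 0.33 to 0.47 with single libraries left out. The gene lies on chromosome 1 from 150293861 to 150308979 on the plus strand (GRCh38, GENCODE 44), with 3 exons in its MANE Select transcript of 1085 bases. GENCODE names 8 pseudogenes of MRPS21, so its count may hold reads shared with these copies, which was not tested.

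MRPS34, a protein of the mitochondrial small subunit without a bacterial counterpart, had 213 and 223 CPM in WT and 147 and 146 CPM in KO libraries. The genotypes did not overlap, and the log2 fold change was -0.57 (SE 0.066, edgeR adjusted p = 6.41e-07). The gene (chromosome 16, 1771890 to 1773150, minus strand, 3 exons) has an exon overlapping EME2 on the opposite strand, and the EME2 counts of 4, 46, 19 and 14 in WT 1, WT 2, KO 1 and KO 2 were small beside those of MRPS34, at 1551 to 2447. MRPL28, the counterpart of bacterial bL28 in the large subunit, is the other member on chromosome 16 (366969 to 371289, minus strand, 6 exons). It had 130 and 138 CPM in WT and 93.2 and 90.8 CPM in KO libraries, again without overlap, and a log2 fold change of -0.54 (SE 0.076, edgeR adjusted p = 9.15e-06).

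Both chromosome 16 genes sat close to the median of their chromosome. MRPS34 lay 0.13 below it and MRPL28 0.10 below it on the log2 scale, and 184 and 200 of the 573 tested genes of chromosome 16 had a lower log2 fold change. The share of tested genes called lower was 50.6% on chromosome 16 and 60.1% on chromosome 22. MRPL40, a mitochondria-specific large subunit protein, lies on chromosome 22 (19432545 to 19436075, plus strand). It had 42.1 and 38.9 CPM in WT and 32.0 and 32.5 CPM in KO libraries, without overlap, and its log2 fold change of -0.33 (SE 0.12, edgeR adjusted p = 0.056) missed the threshold and lay 0.09 above the chromosome's median. With TMM factors set without chromosomes 16 and 22 it was -0.35 and passed the threshold (adjusted p = 0.040). Of the 72 genes on other chromosomes, 1 was called higher and 2 lower, 4.17%, beside 18.4% of all tested genes on those chromosomes.

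The 2 remaining falls were smaller. MRPL51, a mitochondria-specific protein of the large subunit, had 164 and 166 CPM in WT and 125 and 143 CPM in KO libraries, a log2 fold change of -0.30 (SE 0.074, edgeR adjusted p = 0.0046), and lies on chromosome 12 (6491886 to 6493841, minus strand). The genotypes did not overlap, but without KO replicate 1 the value was -0.20 and the call was lost (adjusted p = 0.139). MRPS26, a mitochondria-specific protein of the small subunit on chromosome 20 (3046052 to 3048250, plus strand), had 206 and 209 CPM in WT and 168 and 189 CPM in KO libraries, a log2 fold change of -0.22 (SE 0.069, edgeR adjusted p = 0.021). Its call was lost without KO replicate 1 (-0.14, adjusted p = 0.346), without WT replicate 2 (-0.21, 0.054), with library size alone (-0.14, 0.133), with DESeq2 (-0.23, 0.057) and with limma-voom (-0.17, 0.079). For both genes the lower of the KO libraries was KO replicate 1.

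**Figure D3:**
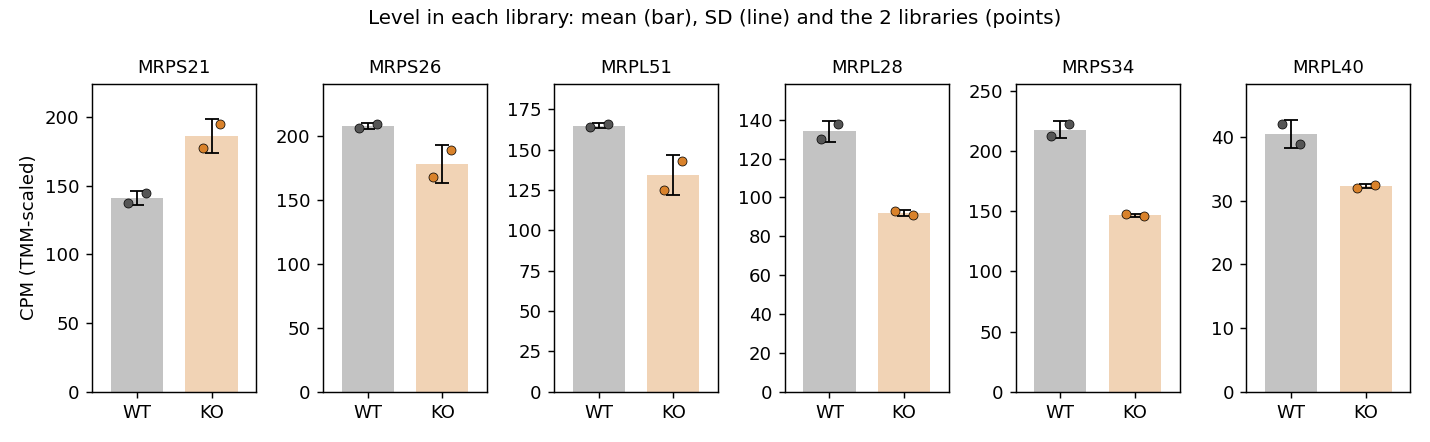
Level (CPM, TMM-scaled, linear axes from 0) of the 5 called genes and of MRPL40 in WT and KO libraries. Bars are means of 2 libraries, lines the SD and points the libraries. In MRPS21 both KO points lie above both WT points, and in the other 5 genes both lie below.

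Set by their roles in the ribosome, the genes differed little in their medians. For the 29 large subunit proteins with bacterial counterparts the median log2 fold change was 0.07, with 1 call (MRPL28, lower). The 19 mitochondria-specific proteins of the large subunit, which include MRPS30 and MRPS18A in spite of their names, had a median of 0.01 and 1 call (MRPL51, lower). The 16 bacterial-type proteins of the small subunit had a median of 0.11 and 1 call (MRPS21, higher), and the 10 mitochondria-specific ones a median of 0.01 and 2 calls (MRPS34 and MRPS26, lower). The shares called in these classes, in the order given, were 3.45%, 5.26%, 6.25% and 20.0%, beside 20.9% of all genes tested. Counted by symbol, the MRPL genes had 0 higher and 2 lower (4.35%), with a median of 0.06. The MRPS genes had 1 higher and 2 lower (10.3%), with a median of 0.06. Of all genes tested, 8.79% were called higher and 12.1% lower. An unadjusted p under 0.05 was reached by 3 MRPL genes with a higher and 9 with a lower level, and by 3 MRPS genes with a higher and 2 with a lower level, beside 33.3% of all genes tested in either direction. By other settings, the count of MRPL genes called higher was 5 with library size alone, 2 with limma-voom and 0 with DESeq2.

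MRPS30 and MRPS36 stand apart from their symbols. MRPS30, a protein of the large subunit, had 31.4 and 32.3 CPM in WT and 32.6 and 33.7 CPM in KO libraries (log2 fold change 0.05, SE 0.125). MRPS36, now known as a subunit of the oxoglutarate dehydrogenase complex, had 16.8 and 20.7 CPM in WT and 18.2 and 21.3 CPM in KO libraries (0.06, SE 0.167), and the genotypes overlapped in it. The proteins MRPS18A, MRPS18B and MRPS18C are paralogs of one another, related to bacterial bS18 and placed at separate sites of the ribosome. In the classes above, MRPS18C was counted as bacterial-type, and MRPS18A and MRPS18B as mitochondria-specific. MRPS18A had a log2 fold change of -0.06 (SE 0.128, edgeR adjusted p = 0.778) and MRPS18B one of -0.13 (SE 0.115, adjusted p = 0.439). MRPS18C had 19.6 and 24.3 CPM in WT and 28.3 and 29.3 CPM in KO libraries, so that the KO libraries lay above the WT ones. Its log2 fold change of 0.38 (SE 0.146, edgeR adjusted p = 0.065) was not called, and it passed under some other settings, among them library size alone (0.47), upper quartile scaling (0.41) and the fit without WT replicate 2 (0.56). A gene on the opposite strand, ABRAXAS1, overlaps an exon of MRPS18C, with 77 to 155 counts.

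Just outside the threshold, chosen after their values were seen, lay MRPL9 (0.26, adjusted p = 0.052), MRPL52 (-0.32, 0.055) and MRPS11 (0.23, 0.064), beside MRPL40 and MRPS18C, and the call of each depended on the setting. In MRPL9, which sits in the large subunit, the WT libraries had 59.9 and 70.5 CPM and the KO libraries 79.9 and 76.9 CPM. In MRPS11, a small subunit protein of bacterial type, they had 72.3 and 67.2 against 81.7 and 81.5 CPM.

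The abundance of the transcripts varied far more among the genes than between the genotypes. Per kilobase of transcript in WT cells, MRPS34 (218) and MRPS26 (205) were the most abundant of the MRPS genes and MRPL51 (184) and MRPL37 (140) of the MRPL genes. The least abundant were MRPL42 (4.58) and MRPL35 (6.0) of the MRPL genes, and MRPS33 (8.29) and MRPS17 (10.9) of the MRPS genes. Levels per length depend on the transcript chosen, and MRPL42 has a MANE Select transcript of 15557 bases. MRPL37, a mitochondria-specific large subunit protein, had 212 and 203 CPM in WT and 220 and 228 CPM in KO libraries (log2 fold change 0.11, SE 0.064). MRPL35, of the large subunit, had 21.9 and 22.7 against 25 and 22.4 CPM (0.09, SE 0.148), with overlap. The spread between replicates was larger in MRPL42, at 80.9 and 61.5 CPM in WT and 76.9 CPM in each of the KO libraries (0.12, SE 0.103; called at 0.32 without WT replicate 1), and in MRPS33, at 39.1 and 30.7 against 33.7 and 28.0 CPM (-0.17, SE 0.140). MRPS17 had 18.3 and 20.6 CPM in WT and 17.2 and 13.2 CPM in KO libraries (-0.35, SE 0.177, edgeR adjusted p = 0.162), and an exon of it overlaps NIPSNAP2 on the same strand, which had 632 to 939 counts. Of the 75 genes, 35 have a pseudogene named in GENCODE and 28 an exon shared with another gene, 13 on the same strand and 21 on the opposite strand, so reads of these genes could be split or shared.

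**Figure D4:**
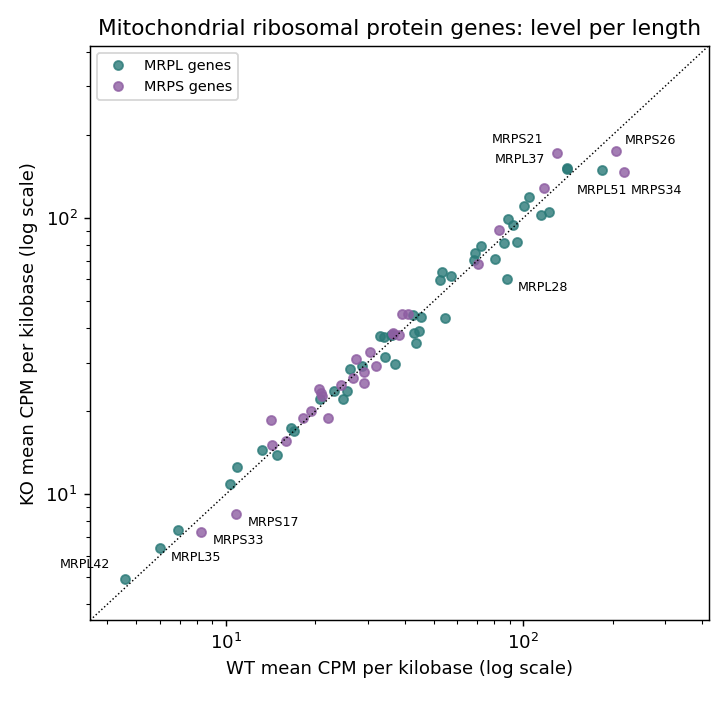
Mean level in KO (y axis) against WT cells (x axis), in CPM per kilobase of MANE Select transcript on log axes, with 1 point per gene and the line of equal levels dotted. The 75 points follow the line from MRPL42, at 4.58 in WT, to MRPS34, at 218, and MRPL28 and MRPS34 lie below it.

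In HEK-293T cells, the study's profiling of single ribosomes singled out the leucine codons rich in U or A. These are all leucine codons other than CUC and CUG. The study also named CUC in its profiling of stacked ribosomes in these cells and of ribosomes in mouse cerebellum. The share of U/A-rich codons among all leucine codons was computed for each coding sequence. The median share in the 75 genes was 47.8%, beside 40.9% in 12934 tested genes with a coding sequence, and single genes ran from 0% to 88.6%. Across the 75 genes the log2 fold change of the transcript followed this share with a Spearman rho of 0.295 (Pearson r 0.344), and across the 72 outside chromosomes 16 and 22 with a rho of 0.25. Over all 12934 genes, with chromosomes 16 and 22 kept in, the Spearman rho was 0.302 and the Pearson r 0.231. The median share was 25.3% on chromosome 16 and 22.7% on chromosome 22, beside 42.4% on the others. A value for all genes without those chromosomes was not computed. All of these correlations run across genes of the same 4 libraries, which share depth and base composition and are not independent replicates. The 75 genes were also split by this share into groups of 25. In the group with the highest share, 57.1% to 88.6%, 19 of 25 had a log2 fold change above 0 (median 0.09) and 0 were called. In the middle group, 14 of 25 lay above 0 (median 0.03), with 1 called higher and 1 lower. In the group with the lowest share, 0% to 37.5%, 13 of 25 lay above 0 (median 0.03) and 3 were called lower. The 2 chromosome 16 genes, MRPS34 (12.5%) and MRPL28 (16.1%), and MRPS26 (15.0%) are those 3. Beside these counts, 8.79% of all genes tested were called higher and 12.1% lower. A difference in calls between the groups was not tested.

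The nearest kinds of gene gave different counts in the same libraries. Of the 44 genes of the cytosolic 60S subunit, 21 were called higher and 3 lower (median log2 fold change 0.16), and of the 28 of the 40S subunit, 14 and 3 (median 0.17). Of 35 nuclear genes of complex I, the first enzyme of the respiratory chain, 7 were called higher and 3 lower (median 0.05). The shares called were 54.5% for 60S, 60.7% for 40S and 28.6% for complex I genes, beside 20.9% of all genes tested (8.79% higher and 12.1% lower). Their precision differed, since the cytosolic ribosomal protein genes had a median WT level of 752 CPM (60S) and 709 CPM (40S) and a median SE of 0.059 each, while the complex I genes had 97.5 CPM and 0.084, against 52.1 CPM and 0.103 for the mitochondrial ones. The difference between these groups and the mitochondrial ribosomal protein genes was not tested.

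**Figure D5:**
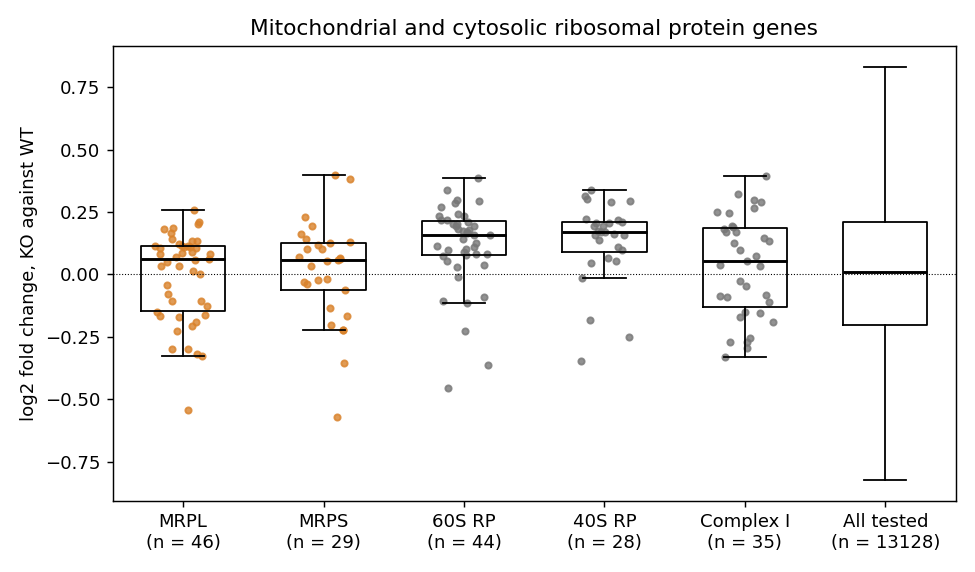
Log2 fold change (KO against WT, y axis) of single genes (points) in the MRPL, MRPS, cytosolic 60S, cytosolic 40S and complex I groups, with boxes for the quartiles and whiskers to 1.5 times the box. The last box gives all 13128 genes tested, without points. The medians are 0.06 for MRPL and MRPS, 0.16 and 0.17 for the cytosolic subunits, 0.05 for complex I and 0.01 for all genes.

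Genes that act with the mitochondrial ribosome were read from the same fit. The 7 ribosomal proteins listed under other symbols (DAP3, AURKAIP1, CHCHD1, PTCD3, GADD45GIP1, ICT1 and MRP63) had log2 fold changes from -0.11 to 0.13, with 0 called by edgeR and 0 at an unadjusted p under 0.05. Of 26 genes of a list for assembly of the mitochondrial ribosome, 4 rose and 3 fell (26.9%, beside 20.9% of all genes tested, with a median of 0.01). The rises included YBEY, an endonuclease (0.61, SE 0.19), METTL15, which methylates the small subunit RNA (0.52, SE 0.17), and FTSJ2, a 2′-O-methyltransferase of the large subunit RNA (0.34, SE 0.09). The falls were MRM1, another 2′-O-methyltransferase (-0.87, SE 0.26), DHX30, an RNA helicase (-0.37, SE 0.07), and MDN1 (-0.20, SE 0.07), which acts on the cytosolic large subunit in the nucleus and does not belong to a mitochondrial list.

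Of 14 tested mitochondrial translation factors, 3 rose and 0 fell (21.4%, beside 20.9% of all genes tested, with a median of 0.06). By direction, 21.4% of this list were called higher and 0% lower, beside 8.79% and 12.1% of all genes tested. An unadjusted p under 0.05 was reached by 4 with a higher and 3 with a lower level, beside 33.3% of all genes tested in either direction. The 3 called were C12orf65, a release factor family member that rescues stalled ribosomes (0.44, SE 0.12), GUF1, an elongation factor of the LepA family (0.35, SE 0.11), and MTIF2, the initiation factor (0.31, SE 0.10). Of 22 tested genes of mitochondrial transcription and RNA processing, 2 rose and 3 fell (22.7%, again beside 20.9%, with a median of -0.04). Counted in either direction, the shares called in the translation factor list and in this list were near that of all genes. POLRMT, the mitochondrial RNA polymerase, had 73.9 and 81.3 CPM in WT and 51.1 and 48.0 CPM in KO libraries (-0.65, SE 0.10, edgeR adjusted p = 2.26e-05). REXO2, a mitochondrial oligoribonuclease, fell by 0.56 (SE 0.10) and TBRG4, of the FASTK family of RNA-binding proteins, by 0.42 (SE 0.11) on the log2 scale. LRPPRC and SLIRP, which together stabilize mitochondrial mRNAs, rose by 0.33 (SE 0.07) and 0.24 (SE 0.08). With DESeq2, and likewise without KO replicate 1, the calls of YBEY, METTL15, MRM1, MDN1, GUF1, MTIF2 and SLIRP were lost. Without KO replicate 1 METTL15 stood at 0.24 and MRM1 at -0.45, and without KO replicate 2 C12orf65 stood at 0.26 and was not called. The calls of YBEY, MDN1, GUF1, MTIF2 and SLIRP were also lost without WT replicate 2, those of YBEY, MDN1 and MTIF2 without KO replicate 2, and that of GUF1 without WT replicate 1. MDN1 was further lost with library size alone, upper quartile scaling and limma-voom, METTL15 with limma-voom, and SLIRP with TMM factors set without chromosomes 16 and 22.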

How the data were processed

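Total RNA of 2 WT and 2 THUMPD1 KO libraries was used. The table the authors deposited holds raw counts, as whole numbers for each gene symbol and library, without normalization. Per the submitters' processing notes the build was hg19, whereas STAR, RSEM, GRCh38 and GENCODE 46 with 3 samples per genotype stand in the paper's methods, so which pipeline made the table is not given in the sources used here. The labels name a Zymo-Seq RiboFree total RNA kit. A second deposited table holds the authors' own comparison (mean level, log2 fold changes with their errors, p-values and adjusted p-values) and was not used.

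Counts were analysed with edgeR 4.0.16 in R 4.3.3 (TMM scaling, glmQLFit and glmQLFTest, at least 1 CPM in at least 2 libraries, Benjamini-Hochberg over all 13128 genes tested, threshold 0.05), with genotype as the only term. The paper names limma-voom with quantile normalization, which served as an alternative (limma 3.58.1), as did DESeq2 1.42.0. SE is the absolute log2 fold change over the root of the quasi-likelihood F, and intervals are 95%. Intervals and floors cover counting and replicate error in these libraries only. Nothing states that libraries came from separate cultures, so p-values measure a spread that may be technical. The exact permutation test of 2 against 2 libraries cannot go below p = 0.333. Replicates of a genotype differed by more than counting error (chi-square per degree of freedom 4.08 for WT, 6.90 for KO), so none was counted as a duplicate. Scripts were tested on simulated counts.

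Genes were placed on GRCh38 by symbol in GENCODE 44 (75 of 75), and RefSeq promoter windows were matched by symbol (66 of 75). Strand of counting is not given. MRPL12 was not analysed here, and MRPL57 and MRPL58 were read under the older symbols MRP63 and ICT1. The 75 genes, the lists and the motifs were chosen with earlier results of these data known. Genes were named if called (up to 8 per subunit and direction), among the 2 most or least abundant per kilobase of a subunit, on chromosomes 16 or 22, an MRPS18 paralog, set apart by structure, or among the 3 largest called changes per direction of a pathway list.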

Additional observations from a re-analysis of the deposited data

How the results depend on the processing

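With single libraries left out, 0 to 2 MRPL genes were called higher, 1 to 3 lower, 1 to 3 MRPS genes higher and 1 to 2 lower, and the median log2 fold change ran from 0.00785 to 0.0570 for MRPL and from 0.0322 to 0.0592 for MRPS genes. In such fits the lone library of a genotype is assumed to vary like the others. Against 0 in the fit reported, 5 MRPL genes were called higher with library size alone, 2 with limma-voom, and 1 each with upper quartile scaling, no filter, at least 10 counts in every library and the replicate block. Against 2, 4 MRPL genes were called lower with TMM factors set without chromosomes 16 and 22 and with the replicate block. Against 1, the MRPS genes called higher numbered 4 with library size alone, 3 with upper quartile scaling, 3 with the replicate block and 2 with limma-voom, and against 2, those called lower numbered 1 with library size alone, DESeq2, limma-voom or a threshold of 0.01. Against 0.0603, the MRPL median was 0.145 with library size alone, 0.0856 with upper quartile scaling, 0.0870 with limma-voom and 0.0395 without chromosomes 16 and 22 in the TMM factors. Against 0.0567, the MRPS median was 0.141, 0.0820 and, without those chromosomes, 0.0359. Same-numbered WT and KO libraries deviated together with a correlation of only 0.0528, so the samples share only a number. The replicate block raised the calls among the 75 genes from 5 to 10, adding MRPL9, MRPL40, MRPL52, MRPS11 and MRPS18C. Single values changed sign for MRPL42 (-0.0724 to 0.321 with single libraries left out), MRPS33 (-0.341 to 0.00907), MRPS36 (-0.0721 to 0.231) and MRPS18A (-0.164 to 0.0337, and 0.0231 with library size alone), and the values past 0 came without WT replicate 1 for MRPS18A, MRPS33 and MRPS36, without WT replicate 2 for MRPL42 and without KO replicate 2 for MRPS36 (-0.0512). The cause was not tested. Depth limits the genes with the fewest counts most, which are not always the least abundant per kilobase. The widest interval, of 0.385, was that of MRPL36, which had the lowest count of any library (108, in WT replicate 1).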
